A study of Mus musculus with 3 samples.

Results

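Among single-cell barcodes of 3 treated mouse medulloblastomas, those holding mRNA of Neurod1, a transcription factor of differentiating granule neurons, were divided by whether they also held mRNA of 6 proliferation genes. A barcode was kept when it had at least 200 counts, at most 10% of them from mitochondrially encoded genes, and at least 1 count of Neurod1. The barcodes with proliferation mRNA had a summed count of Mki67, Top2a, Smc2, Cenpf, Casc5 and Prc1 of at least 1, and those without had a sum of 0. These limits kept 1981 of 20959 deposited barcodes, of which 722 held Neurod1, 320 with proliferation mRNA and 402 without. In tumours 1, 2 and 3 these were 111, 21 and 188 barcodes with, and 198, 16 and 188 without. The barcodes were chosen by the counts of these 7 genes, which are therefore given below as a description and were left out of every sum and test. The further 1259 barcodes within the limits held no Neurod1, 722 of them with proliferation mRNA and 537 without.

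The tumours came from hGFAP-Cre/SmoM2 (G-Smo) mice on a C57BL/6 background. In these mice a Cre recombinase driven by a human GFAP promoter, active in neural progenitors, switches on SmoM2, an always-active form of the Hedgehog pathway protein Smo. Each mouse received palbociclib, which blocks the kinases CDK4 and CDK6 that drive cells into S phase, carried in a polyoxazoline nanoparticle (POx-palbo). It was injected into the peritoneum at 25 mg/kg in 5 daily doses from postnatal day 10, and tumours were harvested on postnatal day 16. All 3 tumours carry the same alleles and the same treatment, and untreated tumours are not analysed here, so comparisons run between barcodes of the same tumours and say nothing about the drug. The study set treated tumours beside untreated ones, per its design text.

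Granule neuron progenitors of the cerebellum divide under Sonic hedgehog signalling, then leave the cell cycle, switch on Neurod1 and become granule neurons. Tumours of the SmoM2 kind keep cells at many points of that path. Mki67 encodes the Ki-67 protein that coats mitotic chromosomes, Top2a a topoisomerase that untangles DNA, Smc2 a core subunit of condensin, Cenpf and Casc5 kinetochore proteins, and Prc1 a bundler of spindle microtubules. Their mRNAs build up late in the cell cycle, together with those of many other mitosis genes. In many such genes 2 short promoter elements, the cell cycle genes homology region (TTTGAA) and the CCAAT box bound by NF-Y, serve this timing.

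Neurod1 was held by the barcodes on both sides of the division. The sequences below show its start site and those of Top2a, of the 6 genes, and of the mitosis genes Aspm and Cdca8, called below. Each runs 5′ to 3′ from 250 bases before the annotated start to 50 after it (RefSeq, GRCm38.p6), and capitals mark TTTGAA and CCAAT on either strand (TTCAAA and ATTGG where reversed). Top2a lies at chr11:99024140-99024439 on the minus strand, Aspm at chr1:139454523-139454822 on the plus strand, Cdca8 at chr4:124936868-124937167 on the minus strand and Neurod1 at chr2:79456587-79456886 on the minus strand.
Top2a: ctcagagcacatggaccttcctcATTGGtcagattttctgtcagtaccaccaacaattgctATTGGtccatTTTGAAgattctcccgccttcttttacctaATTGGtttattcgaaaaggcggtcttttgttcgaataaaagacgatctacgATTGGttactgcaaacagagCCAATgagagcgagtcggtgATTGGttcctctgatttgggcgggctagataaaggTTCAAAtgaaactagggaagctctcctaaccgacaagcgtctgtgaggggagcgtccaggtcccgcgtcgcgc
Aspm: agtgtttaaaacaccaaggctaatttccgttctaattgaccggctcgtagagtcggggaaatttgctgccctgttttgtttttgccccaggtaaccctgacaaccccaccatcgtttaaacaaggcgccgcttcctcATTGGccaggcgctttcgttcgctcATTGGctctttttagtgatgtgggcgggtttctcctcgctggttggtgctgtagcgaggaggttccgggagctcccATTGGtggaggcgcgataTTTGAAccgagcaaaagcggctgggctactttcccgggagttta
Cdca8: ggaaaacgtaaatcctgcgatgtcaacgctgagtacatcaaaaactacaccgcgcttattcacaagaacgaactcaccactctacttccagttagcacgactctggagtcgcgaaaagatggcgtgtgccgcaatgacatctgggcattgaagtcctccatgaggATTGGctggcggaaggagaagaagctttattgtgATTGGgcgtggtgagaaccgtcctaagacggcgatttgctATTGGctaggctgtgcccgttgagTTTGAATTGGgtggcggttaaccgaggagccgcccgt
Neurod1: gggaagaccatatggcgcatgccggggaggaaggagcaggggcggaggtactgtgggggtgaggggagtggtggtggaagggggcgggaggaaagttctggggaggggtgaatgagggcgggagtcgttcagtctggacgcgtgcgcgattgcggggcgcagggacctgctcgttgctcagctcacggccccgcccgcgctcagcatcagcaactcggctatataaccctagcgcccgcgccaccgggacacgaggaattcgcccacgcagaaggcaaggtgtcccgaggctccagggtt
The Top2a window held 2 matches to TTTGAA and 6 to CCAAT, Aspm 1 and 3, Cdca8 1 and 4, and Neurod1 0 and 0. In Cdca8 the TTTGAA match overlaps a reversed CCAAT match. Of the 6 proliferation genes 5 were in the promoter table, and all 5 held both motifs. Of the 10 mitosis genes called below 7 were in it, of which 5 held TTTGAA (71.4%), 4 held CCAAT (57.1%) and 3 held both (42.9%). Aspm and Cdca8 were among these 3, while Cenpe held no TTTGAA, Kif15 and Kif20b no CCAAT and Nusap1 neither. Over the 2627 genes tested that matched the table, 14.2% held TTTGAA, 43.9% CCAAT and 7.38% both. These are matches of letters and were not tested as binding sites.

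Most Neurod1 barcodes with proliferation mRNA held very little of it. Over the tumours 402 Neurod1 barcodes had 0 counts of the 6 genes, 135 had 1, 69 had 2, 34 had 3 or 4, 38 had 5 to 9 and 44 had 10 or more. The threshold of the rule lies between 0 and 1 count, and the barcodes on both sides of it had a median total of 309 counts. In tumours 1, 2 and 3, 111 of 309 (35.9%, exact binomial 95% interval 30.6 to 41.6%), 21 of 37 (56.8%, 39.5 to 72.9%) and 188 of 376 (interval 44.8 to 55.2%) Neurod1 barcodes passed it. The mean was 47.6% ± 10.6 (SD, n = 3 tumours), and such intervals cover counting error only. A share of at least 5 counts was far smaller, 11.9% ± 1.97 (SD, n = 3), with 30, 5 and 47 barcodes in tumours 1, 2 and 3.

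**Figure D1:**
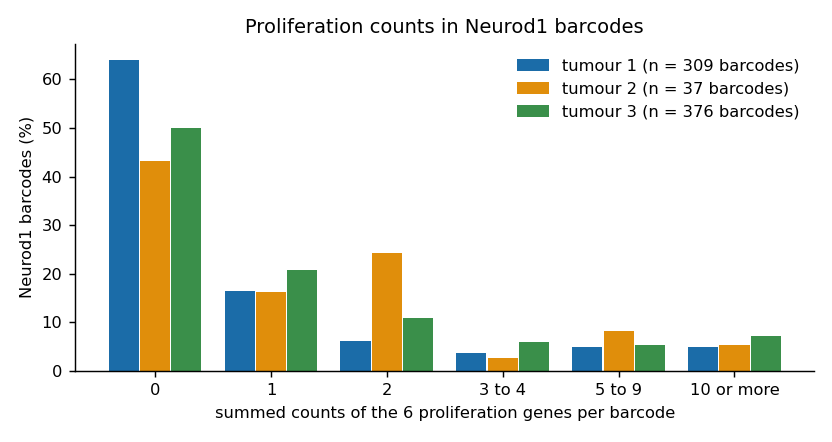
Share of Neurod1 barcodes (vertical axis, percent) by the summed count of the 6 proliferation genes (horizontal axis), with 1 bar for each tumour of 309, 37 and 376 barcodes. In each tumour the class of 0 counts is the tallest, and the 82 barcodes of 5 or more counts form the 2 classes at the right.

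The 82 barcodes with at least 5 counts usually held several of the 6 genes. In 2 of them the counts came from 1 gene, in 6 from 2 genes, in 21 from 3, in 26 from 4, in 19 from 5 and in 8 from all 6. The highest sum in 1 barcode was 52, in tumour 1. Across all Neurod1 barcodes with proliferation mRNA, the condensin gene Smc2 was found most often in tumours 1 and 3 (48.6% and 48.9%) and Top2a in tumour 2 (42.9%). Mki67 was found in 37.8%, 33.3% and 40.4% of them. Casc5 was found in 10.8%, 33.3% and 15.4%, the lowest share of the 6 genes in tumours 1 and 3. Among barcodes of at least 5 counts Mki67 was present in 26 of 30, 2 of 5 and 41 of 47.

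Barcodes called as other cell types also carried both kinds of mRNA. Of 29 barcodes called myeloid (at least 3 counts over at least 2 markers such as C1qa and Ctss), 8 held Neurod1 (27.6%, exact interval 12.7 to 47.2%) and 14 held proliferation mRNA (48.3%, 29.4 to 67.5%). Both kinds were found in 3 of them (10.3%). In the 1823 barcodes with no call for another type the shares were 37.1%, 52.7% and 16.5%, at a median total of 308 counts against 475 in the myeloid barcodes. A sum of at least 5 counts was reached by 4 of 29 myeloid barcodes (13.8%, 3.89 to 31.7%) and by 255 of the 1823 (14.0%, 12.4 to 15.7%). In the myeloid barcodes the interval of each of these shares held the share of barcodes without a call. With 29 barcodes pooled over the tumours, at a higher median total, these wide intervals cannot show that the shares were alike. Of 24 barcodes called oligodendrocyte lineage, at a median of 609 counts, 7 held proliferation mRNA (29.2%, 12.6 to 51.1%), and 2 reached 5 counts. Of 102 called astrocyte, at a median of 618.5 counts, 59 held it (57.8%, 47.7 to 67.6%) and 26 reached 5 counts (25.5%, 17.4 to 35.1%). Shares with any count thus ran from 29.2% to 57.8% over these types, and a single count of the 6 genes is not taken here as the sign of a dividing cell. Whether cells of these types divided, and the part of free RNA, was not tested.

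Depth moved with the division. Median totals were 436, 260 and 349.5 counts per barcode with proliferation mRNA in tumours 1, 2 and 3, and 340, 246.5 and 300 without, so they were higher with it in 3 of 3 tumours. The share of Neurod1 barcodes with proliferation mRNA was 39.9% ± 13.6 from 200 to under 300 counts, 44.7% ± 5.41 from 300 to under 500 and 73.5% ± 27.4 from 500 counts (SD, n = 3 each). With every barcode thinned to 200 counts, the share was 27.5%, 58.6% and 35.8% of 204, 29 and 279 barcodes still holding Neurod1, a mean of 40.6% ± 16.1. Tumour 2 was the highest of the 3 at whole depth and after thinning, and gave the fewest barcodes.

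**Figure D2:**
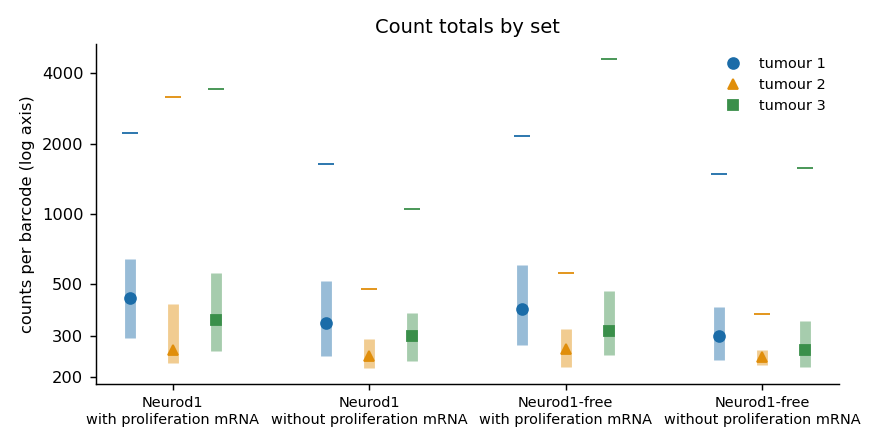
Counts per barcode (vertical log axis) in the 4 sets, by tumour: points are medians, thick bars run from the lower to the upper quartile and dashes mark the highest barcode. In tumours 1 and 3 medians lie higher with proliferation mRNA than without, and the highest Neurod1 barcode of tumour 2, at 3172 counts, lies far above its median of 260.

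Neurod1-free barcodes held proliferation mRNA in 57.9% ± 2.12 (SD, n = 3) at whole depth and 46.7% ± 3.98 after thinning. Their mean lay above that of the Neurod1 barcodes in both readings. The order did not hold in each tumour, since in tumour 2 the thinned share was 58.6% with Neurod1 and 32 of 64 barcodes without. Shares of at least 5 counts were 15.0% ± 2.20 without Neurod1 and 11.9% ± 1.97 with it. No test was made, because Neurod1 chose the barcodes and an exact two-sided permutation test over 3 paired tumours cannot go below p = 0.25.

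Neurod1 itself was sparser where the 6 genes were many. In the barcodes with proliferation mRNA it took 35.1, 30.0 and 40.2 per 10000 counts in tumours 1, 2 and 3, against 49.6, 43.9 and 64.8 in those without. These values are bounded from below by the rule, so all barcodes within the limits give a fairer view. In barcodes with 0 counts of the 6 genes Neurod1 took 21.8, 18.9 and 31.0 per 10000, and in those with at least 5 counts 4.98, 15.5 and 9.35. The latter was lower in tumours 1 and 3. In tumour 2 it was lower by little, on 12 barcodes of which 5 held Neurod1, too few to tell the levels apart. In each tumour it was also lower than in the shallow barcodes of 50 to under 100 counts (20.2, 27.1 and 23.4 per 10000). After thinning to 200 counts, Neurod1 was found in 25.3%, 27.3% and 34.7% of barcodes with 0 counts of the 6 genes. It was found in 8.33%, 25.0% and 12.3% of those with at least 3, and in 7.50%, 33.3% and 12.8% of those with at least 5. In tumours 1 and 3 both shares lay below those at 0 counts. In tumour 2 the share at 5 or more counts, 2 of 6 thinned barcodes, was not lower, nor was it at whole depth (41.7% against 41.0%).

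**Figure D3:**
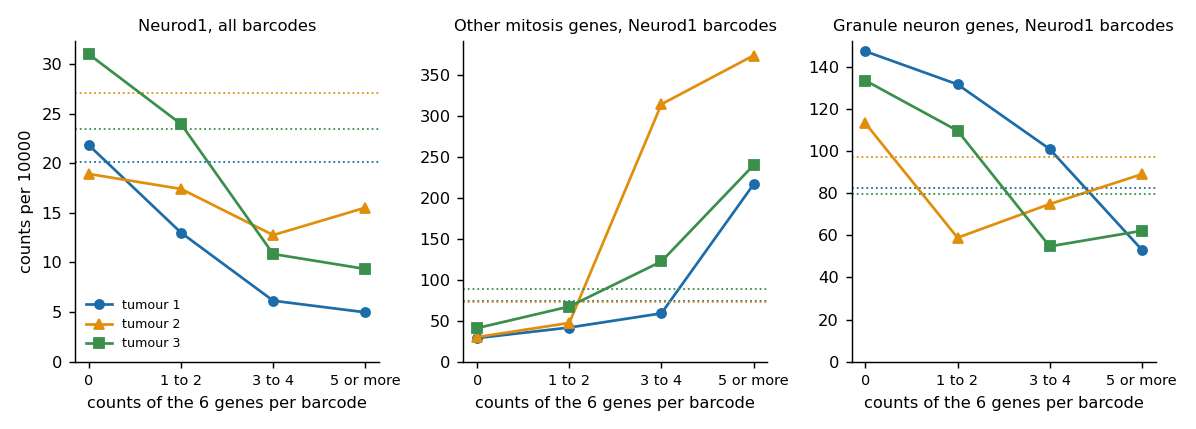
Counts per 10000 (vertical axis) of Neurod1 in all barcodes within the limits, and of 2 gene lists in Neurod1 barcodes, by the count of the 6 genes (horizontal axis), with 1 line for each tumour and dotted lines for its barcodes of 50 to under 100 counts. Mitosis genes lie below the dotted lines at 0 to 2 counts and above them from 5, and Neurod1 lies below them at 3 or more; tumour 2 at 3 to 4 counts is a single Neurod1 barcode.

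Other mitosis genes followed the 6 genes closely, in barcodes rich in them. A list of 74 mitosis genes outside the rule took 28.8, 30.0 and 41.0 per 10000 counts in Neurod1 barcodes without proliferation mRNA. It took 41.7, 47.3 and 67.3 in Neurod1 barcodes with 1 or 2 counts of the 6 genes. In shallow barcodes it took 74.2, 72.3 and 89.1, so Neurod1 barcodes with 0 to 2 counts lay below that level in each tumour. In Neurod1 barcodes with at least 5 counts it took 216.5, 373.9 and 239.9, and in Neurod1-free barcodes with at least 5 counts 208.6, 183.3 and 226.7. Within each tumour the level was higher in the Neurod1 barcodes, by little in tumours 1 and 3, and tumour 2 had 5 such barcodes. The level of the whole list was not tested. Gene by gene, edgeR called 0 of 62 tested mitosis genes between these 2 kinds of barcode. Their median log2 difference was 0.09, with 34 above 0, against 49.6% of all genes tested.

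To compare the whole transcriptome, the counts of each set were added up within each tumour and tested with edgeR's quasi-likelihood test with the tumour as a block. A gene was called at a Benjamini-Hochberg adjusted p under 0.05 over the 3484 genes with at least 20 counts. In Neurod1 barcodes with proliferation mRNA 13 genes were higher (0.373% of those tested) and 1 was lower (0.0287%) than in those without, 14 in all (0.402%). Without adjustment 182 of the 3484 had p under 0.05. Here and below, tests with no true difference would pass this limit at a rate of about 0.05. Of the 13 higher genes 10 belonged to the mitosis list, and the log2 fold change over all tested genes had a median of 0.05. Mitosis genes are made at the same time as the genes of the rule, so this is a description of what came with them.

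Cenpe, the kinesin of the kinetochore, had 54, 7 and 74 counts with proliferation mRNA in tumours 1, 2 and 3, or 927, 641 and 846 CPM (counts per 1000000 counts of the sum). It had 10, 0 and 3 counts without, or 123, 0 and 47.8 CPM. The values did not overlap, and the log2 difference was 3.37 (SE 0.46, edgeR adjusted p = 6.351e-10). Its counts came from 59 barcodes, at most 12 from any 1 of them.

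Kif15, a spindle kinesin, had 14, 4 and 33 counts with proliferation mRNA and 1, 0 and 0 without. Per count of the sums this was 48.2 times as much, with a 95% counting interval from 8.28 to 1942 (edgeR adjusted p = 5.476e-05). Aspm, a protein of the spindle poles, had 11, 2 and 38 counts against 0, 0 and 2. The ratio was 24.1 (interval 6.34 to 204.5, edgeR adjusted p = 0.0004619). Both genes were all but missing from the Neurod1 barcodes without proliferation mRNA, in each tumour.

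Tpx2, a spindle assembly factor, reached 412, 183 and 537 CPM with proliferation mRNA against 12.3, 0 and 112 without (log2 difference 3.03, SE 0.58, adjusted p = 0.0002226). Ckap2l, a spindle protein of dividing neural progenitors, reached 326, 1191 and 377 against 37.0, 232 and 63.8 (2.84, SE 0.57). In tumour 2, 11 of its 13 counts were in 1 barcode. Kif20b, a kinesin of the dividing cell's midbody, reached 498, 183 and 389 against 49.3, 0 and 112 (2.51, SE 0.55). Nusap1, which binds spindle microtubules, reached 429, 550 and 331 against 49.3, 0 and 112 (2.38, SE 0.56). All 4 were higher in 3 of 3 tumours, with counts from 41 to 45 barcodes each.

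Cdca8 and Incenp encode subunits of the chromosomal passenger complex, which corrects spindle attachments. Cdca8 had 13, 3 and 29 counts against 4, 0 and 3 (log2 difference 2.52, SE 0.67, edgeR adjusted p = 0.04467). Incenp had 18, 4 and 49 counts against 9, 0 and 8 (1.90, SE 0.50, adjusted p = 0.04237). Sgol2, a protector of centromeric cohesion, had 19, 4 and 18 counts against 3, 0 and 4 (2.50, SE 0.67). Its adjusted p of 0.04989 lies at the threshold. All 3 were higher in 3 of 3 tumours.

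**Figure D4:**
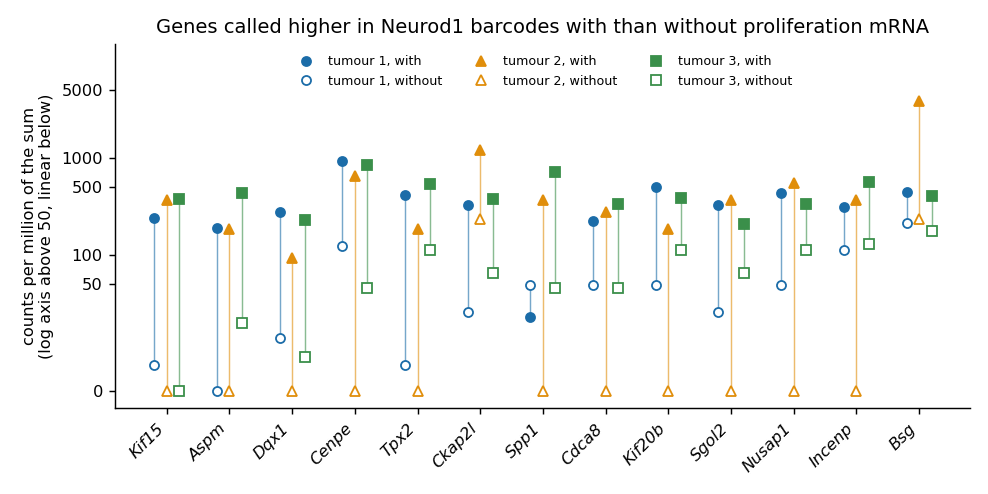
CPM of the sums (vertical axis, logarithmic above 50 and linear below) for the 13 genes called higher, with filled points for Neurod1 barcodes with and open points for those without proliferation mRNA, joined within each tumour. The 10 mitosis genes lie higher with proliferation mRNA in each tumour, while Spp1 lies lower in tumour 1.

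Of the other 3 genes called higher, Spp1 and Dqx1 rested on few barcodes and Bsg in tumour 2 on 1. Bsg, a surface protein abundant in blood vessels of the brain, had 26, 42 and 35 counts with proliferation mRNA against 17, 1 and 11 without (log2 difference 1.74, SE 0.39, edgeR adjusted p = 0.004567). In tumours 1 and 3 its counts came from 20 and 23 barcodes, and in tumour 2, 40 of the 42 were in 1 barcode, the deepest of that tumour with 3172 counts. Spp1, which encodes the secreted protein osteopontin, had 2, 4 and 62 counts against 4, 0 and 3 (2.69, SE 0.65, adjusted p = 0.01154). It was lower in tumour 1, and 38 of its 68 counts were in 1 barcode of tumour 3. Dqx1 had 37 counts against 3, a ratio of 11.7 (interval 3.69 to 59.1), from only 9 barcodes, 15 of the counts from 1 of them.

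Vascular markers as a list took 5.77, 78.1 and 9.48 per 10000 counts with proliferation mRNA and 3.43, 2.31 and 3.17 without. Of 20 such genes 14 had counts with it and 13 without, and Pecam1, Vtn, Lum and Kcnj8 were at 0 in both. The part of vascular cells in these 3 calls was not tested.

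A pair of large barcodes weighs on tumour 2. They had 3172 and 1678 counts, 44.0% of the counts with proliferation mRNA in that tumour, and both carried marker calls for another type. Of all Neurod1 barcodes with proliferation mRNA, 7, 2 and 11 carried such calls in tumours 1, 2 and 3, and 16, 1 and 9 of those without. Without called barcodes 10 genes were higher (0.334% of 2996 tested) and 0 lower, and all 10 belonged to the mitosis list. Of the 14 genes called with all barcodes 9 were called again. Without barcodes of over 1500 counts 10 were higher (0.309% of 3238) and 1 lower (0.0309%), 9 of the former from the mitosis list.

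Genes of the mitosis list that missed the threshold mostly had folds on the same side. Of its 74 members 44 had enough counts, 10 were called higher, 0 lower and 34 were not called. The median log2 difference was 1.89 over these 44, 43 of them above 0, against 53.8% above 0 among all genes tested. Without the count filter, which favours genes that are high in 1 set, the median over all 74 was 1.88 and 71 were above 0. Smc4, the partner of Smc2 in condensin and the member with the most counts, had 37, 5 and 90 counts against 20, 4 and 29 (log2 difference 1.11, SE 0.36, edgeR adjusted p = 0.2565). Hjurp, which loads the centromeric histone, had 22, 2 and 43 against 11, 0 and 13 (1.38, SE 0.47, adjusted p = 0.3247). Ckap5, a microtubule polymerase, had a log2 difference of 0.85 (SE 0.38).

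Of 68 DNA replication genes 36 were tested, and none was called in either direction. Their median log2 difference was 0.93, with 34 of 36 above 0. The list took 86.6, 58.1 and 96.2 per 10000 counts with proliferation mRNA and 42.4, 57.8 and 48.2 without, so tumour 2 showed no difference. Nasp, a histone chaperone, had 41, 0 and 100 counts against 35, 4 and 31 (log2 difference 0.78, SE 0.36, edgeR adjusted p = 0.8207). Ezh2, the histone methyltransferase of the Polycomb complex, had a log2 difference of 0.83 (SE 0.38), the clamp loader subunit Rfc1 0.89 (SE 0.45) and the deubiquitinase Usp1 1.08 (SE 0.48). Mcm7, part of the replicative helicase and named after its values were seen, had 23, 7 and 22 counts against 10, 0 and 4 (1.96, SE 0.55, adjusted p = 0.0676). Of 34 genes of chromosome structure and histones none was called (median 0.41).

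Genes of granule neuron differentiation leaned the other way, and none was called. Of 49 such genes 30 were tested, with a median log2 difference of -0.61 and 3 above 0. The list took 99.3, 64.5 and 85.5 per 10000 counts with proliferation mRNA against 147.4, 113.2 and 133.5 without, lower in each tumour. Tubb3, a neuronal tubulin, had 23, 0 and 27 counts against 57, 5 and 47 (log2 difference -1.19, SE 0.37, edgeR adjusted p = 0.1721). Cntn2, an adhesion protein of young granule cell axons, had 55, 1 and 28 against 94, 3 and 43 (-0.69, SE 0.35, adjusted p = 0.9501). Rtn1, a reticulon of the neuronal endoplasmic reticulum, was at -0.39 (SE 0.32), the RNA-binding protein gene Elavl3 at -0.43 (SE 0.33) and Gap43, of growing axons, at -0.54 (SE 0.33). Beyond the lists, Ddr1, a collagen receptor, had 4, 0 and 9 counts against 26, 6 and 13 (-1.84, SE 0.57, edgeR adjusted p = 0.1796), and Vezt, of adherens junctions, 2, 0 and 5 against 21, 1 and 12 (-2.25, SE 0.73, adjusted p = 0.2534). Of 43 axon and cytoskeleton genes and 19 synapse and channel genes none was called, with medians of -0.27 and -0.42.

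Of the progenitor, cycle-control and growth genes none was called. Among 29 tested genes of progenitor identity and Hedgehog signalling the median log2 difference was 0.18, with 0 called. Nfib and Nfia, transcription factors of granule cells, were at -0.25 (SE 0.25) and 0.08 (SE 0.28), and Ccnd2, a cyclin of progenitors, at 0.18 (SE 0.29). Among 15 genes of the CDK4 and CDK6 pathway, which holds the drug's targets, the median was 0.41 with 11 above 0, against 0.05 over all genes tested. Cdk4 had 25, 1 and 45 counts against 40, 5 and 41 (log2 difference -0.42, SE 0.36), and Cdk6 was at 0.49 (SE 0.46). Cdkn1b, which encodes the inhibitor p27, was at 0.10 (SE 0.39). Medians were 0.16 for 39 nucleolar and MYC target genes, 0.11 for 54 cytosolic ribosomal protein genes, 0.10 for 12 mTOR pathway genes and -0.02 for 70 nuclear oxidative phosphorylation genes, with 0 called in each.

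Mitosis genes were called where the 6 genes had several counts and not where they had 1 or 2. With at least 5 counts against 0, a division chosen after seeing the data, 31 of 2296 genes tested were higher (1.35%) and 8 lower (0.348%), 22 of the former from 30 tested genes of the mitosis list. Cenpe rose by 4.39 (SE 0.42), Incenp by 2.99 (SE 0.47), Smc4 by 1.84 (SE 0.37) and Mcm7 by 2.60 (SE 0.58) on the log2 scale. Of the granule neuron list 4 of 28 were called lower, among them Tubb3 at -1.96 (SE 0.49), Rtn1 at -1.30 (SE 0.36) and the neuronal splicing factor Rbfox3 at -1.94 (SE 0.54). With 1 or 2 counts against 0, which covers 204 of the 320 barcodes, 3 of 2591 genes were higher (0.116%) and 1 lower (0.0386%). The higher ones were Spp1, Bsg and the vascular marker Itm2a. None of 13 tested mitosis genes was called there, with a median log2 difference of 0.68 and 11 above 0, against 49.6% of all genes tested. Depth differed between these divisions. Median totals were 589.5 counts in Neurod1 barcodes with at least 5 counts of the 6 genes, 315 with 1 or 2 and 309 with 0. The division at 5 counts was not matched on totals, so the part of depth in its calls was not tested.

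**Figure D5:**
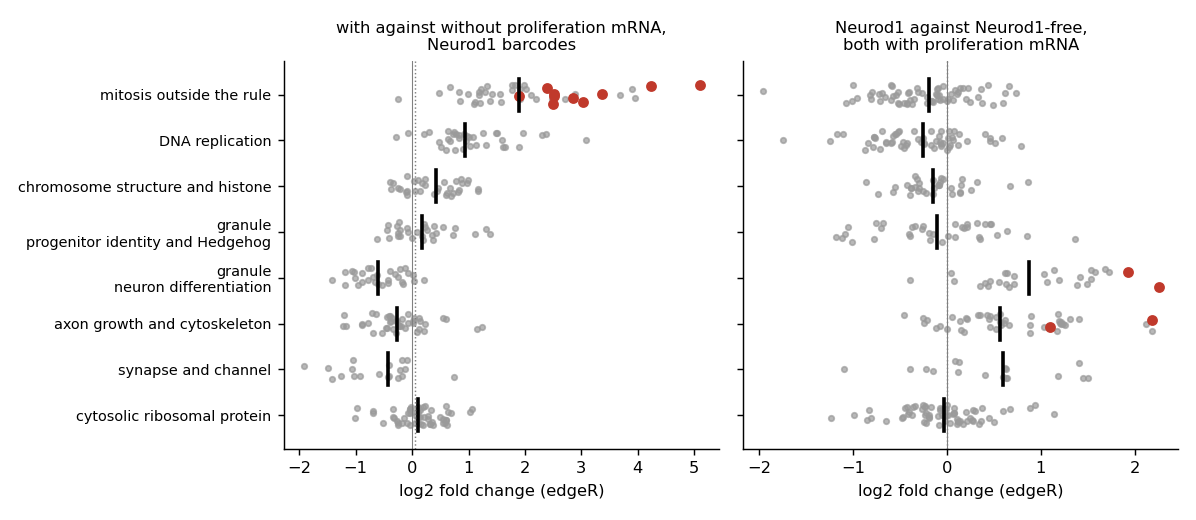
Log2 fold change of each tested gene (horizontal axis) by list, for Neurod1 barcodes with against without proliferation mRNA (left) and for Neurod1 against Neurod1-free barcodes, both with proliferation mRNA (right). Red points are called genes, black bars list medians and dotted lines the median of all genes; at left mitosis genes lie to the right (median 1.89), at right granule neuron genes do (median 0.88).

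Most calls were made again at equal count totals, and none at very low ones. With barcodes of the 2 sets paired within tumours to within 10% of each other's total, 10 of 2287 genes were higher (0.437%) and 3 lower (0.131%), and 11 of the 14 calls were made again. Cenpe was then at 3.53 (SE 0.54), and Bsg, Incenp and Sgol2 were no longer called. The lower ones included Ddr1 (-2.44, SE 0.65) and the neutrophil gene S100a8 (-6.02, SE 1.41), neither of them called with all barcodes. The 24 counts of S100a8 without proliferation mRNA were all in 1 barcode. Thinned to 200 counts, 1011 genes could be tested and 0 were called, with 39 at unadjusted p under 0.05. Cenpe was then at 2.70 (SE 0.68). Among barcodes of 200 to under 400 counts 0 of 1306 were called, and 11 of 11 tested mitosis genes were above 0.

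The calls need both large tumours. Without tumour 1 no gene was called, without tumour 3 only 1, lower, and without tumour 2, 7 genes were higher (0.212% of 3302), 6 of them of the mitosis list. With 1 tumour left out the mitosis list had a median of 1.82 to 2.31. DESeq2 called 1 gene and limma-voom 6 of the 14, and all 14 had the same sign in both.

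To see what sets the Neurod1 barcodes with proliferation mRNA apart from the most similar barcodes, they were compared with Neurod1-free barcodes that also held it. Of 4957 genes tested 6 were higher with Neurod1 (0.121%) and 0 were lower, and 207 had an unadjusted p under 0.05. Granule neuron genes took 99.3, 64.5 and 85.5 per 10000 counts with Neurod1 and 45.6, 71.2 and 50.2 without, so they were higher in tumours 1 and 3. Of 28 tested 27 had a fold above 0 and 2 were called higher, with a median log2 difference of 0.88, against 50.2% above 0 among all genes. Without the count filter, which favours genes that are high in 1 set, 36 of 45 were above 0. Their median was then 0.57, and 42.9% of all genes were above 0.

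Map1b, a microtubule-associated protein of growing axons, reached 2335, 1466 and 1497 CPM with Neurod1 against 972, 1289 and 696 without. It was higher in 3 of 3 tumours (log2 difference 1.103, SE 0.21, edgeR adjusted p = 0.0003219), with counts from 139 barcodes. Cntn2 had 55, 1 and 28 counts with Neurod1 and 26, 2 and 19 without. In CPM it was higher in tumours 1 and 3 and lower in tumour 2, which had 3 counts in all (1.93, SE 0.36, adjusted p = 0.0003219). Meg3, a long noncoding RNA of neurons, had 18, 5 and 16 counts against 4, 2 and 9 (2.26, SE 0.55, adjusted p = 0.03411) and was higher in 3 of 3.

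Dpysl3, which acts in axon guidance, had 20, 2 and 28 counts against 9, 4 and 7, and was lower in CPM in tumour 2 (log2 difference 2.18, SE 0.50, adjusted p = 0.01514). Apc, of the Wnt pathway and of axonal microtubules, reached 996, 916 and 937 CPM against 547, 644 and 363 (1.08, SE 0.26, edgeR adjusted p = 0.03066). Spp1 had 2, 4 and 62 counts against 1, 2 and 12 (2.66, SE 0.53), from the same 8 barcodes as above. Elavl3 was at 1.07 (SE 0.28) and was not called (adjusted p = 0.07372).

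Cycle genes did not separate the 2 kinds of barcode at a called level. Of 66 mitosis genes 0 were called, with a median log2 difference of -0.19 and 21 above 0. Of 59 DNA replication genes 0 were called, with a median of -0.25 and 16 above 0. Both lists thus leaned lower with Neurod1, against 50.2% above 0 among all genes tested. The lowest unadjusted p-values of genes lower with Neurod1 belonged to Ptcd3, with 0 counts against 22 (at least 3.70-fold lower by a floor of 3 counts over the group), Sema7a (-1.57, SE 0.49), Cenph (-1.96, SE 0.68), Dock1 (-1.87, SE 0.69) and Mcm6 (-1.25, SE 0.46). Their adjusted p was 0.32 or more. Hjurp was at -0.71 (SE 0.29), Smc4 at -0.52 (SE 0.24) and Cenpe at 0.37 (SE 0.25). Among barcodes of at least 5 counts in both sets, chosen after seeing the data, 0 of 1951 genes were called, with 58 at unadjusted p under 0.05. The granule neuron list then took 53.2, 89.0 and 62.2 per 10000 counts with Neurod1 against 34.98, 45.8 and 33.7 without, higher in each tumour. In tumour 2 these levels rest on 5 barcodes of 1685 counts together with Neurod1 and 7 of 2182 counts without, so they count for little. The 6 calls fell to 0 without tumour 1 or without tumour 3, and to 0 with DESeq2 and with limma-voom, with the same 6 directions in both tools. With barcodes paired on their totals 1 of 3195 genes was higher (0.0313%) and 2 were lower (0.0626%). Of the 6 only Map1b was called again (log2 difference 1.03, SE 0.20, edgeR adjusted p = 0.03873), and all 6 kept their sign. The lower ones were the astrocyte and myeloid gene Apoe (-1.72, SE 0.23) and the lysosomal protease gene Ctsd (-1.57, SE 0.27). With all barcodes Apoe was at -0.44 (SE 0.19) and was not called. Of its counts there, 198 of 624 without Neurod1 and 77 of 210 with it were each in 1 barcode.

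Whether the proliferation contrast itself differed with Neurod1 was tested as an interaction over the 12 sums. Of 6894 genes 0 were called by edgeR (0%), with 231 at unadjusted p under 0.05, and 0 by DESeq2 and by limma-voom, with 48 and 335. Cenpe differed by 1.57 between the contrasts (SE 0.59, adjusted p = 0.9993), Smc4 by -0.30 (SE 0.43) and Tuba1a, an axonal tubulin, by -0.44 (SE 0.27). A p that misses the threshold does not show that the contrasts were alike. In simulated data this test recovered only 29 of 100 4-fold changes. The lowest p-values belonged to the astrocyte and vessel gene Sparcl1 (1.79, SE 0.46) and the vessel genes Itm2a (4.25, SE 1.15) and Rgs5 (4.43, SE 1.24). In the Neurod1 barcodes with proliferation mRNA, 19 of 76, 11 of 26 and 10 of 19 counts of these genes were in the same barcode of 3172 counts in tumour 2.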

How the data were processed

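Drop-seq counts of unique molecular identifiers per gene and barcode were deposited by the authors for 3 tumours, each from 1 mouse, and are raw counts, per the values in the files. The submitters' processing notes name STAR, Cell Ranger and the build GRCh38, with no version or role, while 18566 of 19744 symbols (94.03%, 96.4% of counts) matched mouse gene names. The tables held 8827, 2330 and 9802 barcodes, 1150463, 248617 and 1324350 counts, and medians of 84, 85 and 105 counts per barcode. Every barcode held at least 50 genes, so barcodes were filtered before deposit. The tables shared 3 to 8 barcodes, none within the limits. The barcodes, gene lists and tests were chosen with earlier results of these data known.

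Counts were summed per tumour and set, without the 7 genes of the rule, and tested with edgeR 4.0.16 (R 4.3.3; TMM, at least 20 counts over the sums, quasi-likelihood, Benjamini-Hochberg at 0.05). The tumour was a block because both sets come from the same animal. P-values thus rest on the spread left between the sums of 3 animals after the block, with dispersion estimates shared between genes. SE was derived from the fold and the F statistic. DESeq2 1.42.0 and limma-voom 3.58.1 were alternatives. Other steps used Python 3.11.15 (pandas 2.3.3, scipy 1.17.1, numpy 2.4.6, matplotlib 3.10.9). The tests were checked on data simulated with no difference between tumours, with changes put into genes of more counts than the filter asks. The first and second comparisons recovered 96 and 97 of 100 4-fold changes, each made by raising the counts of 1 set. The changed genes thus gained counts, and these rates do not hold for sparser genes. The interaction test recovered 29 of 100 4-fold and 67 of 100 16-fold changes. These were made by raising or lowering counts, so its rates cannot be set beside those of the other comparisons. Scrublet-like doublet scores (expected 6%) marked 3 of 963, 25 of 93 and 0 of 925 barcodes, which did not work as a filter, so doublets were kept. Named genes were the 6 proliferation genes and Neurod1, the 12 largest called changes per direction moving the same way in tumours 1 and 3 (with genes of the 5 lowest p where fewer than 5 were called) and, from each list, genes among its 4 most counted tested members or its called members, of which not all are named; Spp1, called with unlike directions, genes named from alternatives and Mcm7 were chosen after their values were seen. The gene called lower in the first comparison is not reported here. Counting intervals and floors (3 counts) cover counting error only. Alternatives are given in the closing section.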

Additional observations from a re-analysis of the deposited data

Results flagged for a closer look

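Neurod1 barcodes below the depth limit also carried proliferation mRNA. Of 1445 Neurod1 barcodes of 100 to under 200 counts, which the limit of 200 leaves out, 435 held at least 1 count of the 6 genes, 30.1% pooled over tumours, against 30.02% (1421 of 4734) of Neurod1-free barcodes of that depth. No gene of 2183 was called between those with and without it by edgeR, with 27 at unadjusted p under 0.05. Neurod1 barcodes over the mitochondrial limit held proliferation mRNA in 34 of 66 (51.52%). Both were singled out because they lie outside the barcodes compared, and the part of free RNA in them was not tested.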

How the results depend on the processing

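Counts of called genes are given as higher and lower. For Neurod1 barcodes with against without proliferation mRNA (13 and 1) they were 1 and 0 with DESeq2, 6 and 0 with limma-voom, 13 and 3 at a filter of 50 counts, 10 and 2 with no replicate block, 0 and 0 thinned to 200 counts or at 200 to under 400 counts, 2 and 0 at 5% mitochondrial counts or with at least 2 counts of Neurod1, 14 and 2 without called doublets, 10 and 0 without marker calls, 10 and 3 matched on totals, 23 and 9 for at least 2 counts of the 6 genes, 31 and 8 for at least 5, 3 and 1 for 1 or 2, and 0 and 0 at 100 to under 200 counts. Leaving out 1 tumour gave 0 to 7 higher and 0 to 1 lower. With against without Neurod1 (6 and 0) gave 0 and 0 with DESeq2, limma-voom, a filter of 10 counts, 200 to under 400 counts, 5% mitochondrial counts or at least 5 counts of the 6 genes in both sets, 12 and 0 at 50 counts, 3 and 1 with no filter, 1 and 0 with no replicate block or thinned, 11 and 0 without marker calls, 1 and 2 matched on totals, 12 and 1 without barcodes of over 1500 counts, and 0 to 7 and 0 to 2 with 1 tumour left out. The interaction (0) gave 1, Apoe, without tumour 1 and 1, Itm2a, from 300 counts, and 0 with no replicate block. The share of 47.56% fell to 11.91% at 5 or more counts, which counts fewer barcodes by construction. On the log2 scale Spp1 turned to -3.345 when thinned, and at 100 to under 200 counts Bsg turned to -0.688, Tpx2 to -0.2713, Cntn2 to 0.4844 and Ccnd1 to -0.3087, none called; the cause was not tested. Of the single-gene values under the alternatives of the first comparison 316 kept direction and side of the threshold, 126 lost the call, 11 gained one and 5 turned, and of the second 87, 68, 10 and 0. Depth limits all of this, since most genes have under 20 counts in a comparison.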

Other observations

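A single neutrophil-like barcode held much of what the Neurod1 barcodes without proliferation mRNA had of that cell type. S100a8, a neutrophil gene, had 24 counts there and 0 with proliferation mRNA, at least 8.46-fold lower by a floor of 3 counts over the group, and was not called (edgeR adjusted p = 0.0676). All 24 were in 1 barcode. With barcodes paired on their totals S100a8 was called lower (log2 difference -6.02, SE 1.41, edgeR adjusted p = 0.005441), which rests on that barcode. Myeloid markers took 4.07, 69.9 and 5.98 per 10000 counts of Neurod1 barcodes with proliferation mRNA in tumours 1, 2 and 3, and 6.25, 2.31 and 8.87 without. Astrocyte markers took 17.3, 74.4 and 27.7 with it and 40.5, 4.62 and 19.3 without. Tumour 2 was the highest of the 3 in both lists with proliferation mRNA and the lowest without. Its sums were small, at 11015 counts with proliferation mRNA and 4329 without. In the former, 2 barcodes with marker calls for another type held 44.0% of the counts. Oligodendrocyte lineage markers took 5.77, 3.63 and 4.06 with and 13.1, 122 and 5.23 without. The 122 of tumour 2 comes from a set of 16 barcodes. Only 1 of them, the deepest at 478 counts, carried a marker call for another type, and its part in that level was not tested. Of 15 such genes 9 and 13 had counts, and Mag and Mog were at 0 with proliferation mRNA. Erythroid markers took 1.36, 3.63 and 3.61 with and 1.35, 4.62 and 3.33 without. Markers of other cerebellar neurons, with 95 counts of Lhx1 in each set, took 6.79, 5.45 and 7.22 with and 7.36, 2.31 and 8.39 without.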
